A study of Mus musculus with 10 samples.

Results

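Slc4a1, Epb41, Epb42, Sptb, Ank1, Add2, Gypc and Tmod1 encode 8 proteins of the red cell membrane skeleton. They were followed across 10 mouse arrays of EML-C1 cells, an established line of multipotent blood progenitors. All 8 symbols were found among the 20660 gene symbols that the array's RefSeq identifiers gave, through 10 of 55681 probes: 3 for Epb41 and 1 for each other gene. Their probes were picked by symbol and not by measured values, but the genes were chosen with earlier results of these data known.

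The red cell membrane is carried by a lattice of spectrin tetramers whose nodes are short actin filaments. The lattice is tied to the lipid bilayer at the ankyrin complex, which holds the anion exchanger band 3, and at the junctional complex, where protein 4.1 joins spectrin, actin and glycophorin C. Losses of band 3, ankyrin, spectrin or protein 4.2 are known causes of hereditary spherocytosis, and losses of protein 4.1 or spectrin of elliptocytosis.

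The arrays hold 10 conditions with 1 array each. Untreated cells were taken at day 0. Erythropoietin (EPO, 10 ng/ml) is the hormone that drives red cell formation. The treatment labelled GM-CSF/IL-3, written IL-3/GM-CSF here, used 10 ng/ml IL-3 with 10 µM all-trans retinoic acid, and GM-CSF (10 ng/ml) joined these from day 3 on, so that the day 3 cells of this treatment had not met GM-CSF. The combined treatment held all of these agents. GM-CSF again joined from day 3 on, so the combined day 3 cells had not met GM-CSF either. At day 3 each culture was sorted into cells low and high for Sca1, a surface protein of progenitors encoded by Ly6a, and at day 6 the labels name no fraction. All cultures shared horse serum and BHK/MKL conditioned medium, whose share was lowered after day 3. The series' design text speaks of duplicates, and 1 array per condition was analysed here. A single line, cultured outside the marrow, was the only cell source.

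Levels below are log2 processed intensities minus the array's 75th percentile, so 0 stands for the 75th percentile of that array and a difference of 1 for 2-fold. A level is one probe's and is compared only between arrays, not between genes. The 75th percentile lay between 309 intensity units, in EPO Sca1-low, and 736, in untreated cells, and 42.5% to 57.2% of spots were well above background. No member probe was saturated or flagged. The extraction software's quality summary read "evaluate" for all Sca1-low arrays and for EPO and combined Sca1-high. For the other arrays, IL-3/GM-CSF Sca1-high among them, it read "in range". The extraction software's own error of a detected member spot was 10.0% to 16.0%, at most 0.23 on the log2 scale. It covers the spot and not the culture. Ly6a checked the sort: it read 3.02 in untreated cells, -4.25, -3.43 and -2.80 in Sca1-low, and 4.76, 2.64 and 1.89 in Sca1-high. The -4.25, in EPO Sca1-low, was not well above background. In a bulk sample, fewer cells of a type and less RNA per cell cannot be told apart.

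Promoters of members that moved together, and of a member that stayed below background, are shown to set their sequences beside their levels. Each is the 250 bases before a RefSeq transcription start of GRCm38.p6, read 5′ to 3′ on the gene's strand. Capitals mark, on either strand, a GATA word (GATA preceded by A or T and followed by A or G) or a match to CCNCNCCC, the core of the CACCC box. The Epb42 window lies at chr2:121036878-121037127 on the minus strand, the Add2 window at chr6:86028431-86028680 on the plus strand, and the Sptb window at chr12:76710548-76710797 on the minus strand.
Epb42: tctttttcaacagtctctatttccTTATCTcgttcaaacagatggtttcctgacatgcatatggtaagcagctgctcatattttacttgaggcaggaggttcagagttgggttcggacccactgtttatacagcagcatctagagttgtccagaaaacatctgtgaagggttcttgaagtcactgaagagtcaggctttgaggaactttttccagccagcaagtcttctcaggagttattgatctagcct
Add2: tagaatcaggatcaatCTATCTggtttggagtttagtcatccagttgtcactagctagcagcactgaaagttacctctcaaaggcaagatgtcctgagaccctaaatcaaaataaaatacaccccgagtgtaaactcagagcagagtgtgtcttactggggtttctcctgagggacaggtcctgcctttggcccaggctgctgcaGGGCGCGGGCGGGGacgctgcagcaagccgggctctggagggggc
Sptb: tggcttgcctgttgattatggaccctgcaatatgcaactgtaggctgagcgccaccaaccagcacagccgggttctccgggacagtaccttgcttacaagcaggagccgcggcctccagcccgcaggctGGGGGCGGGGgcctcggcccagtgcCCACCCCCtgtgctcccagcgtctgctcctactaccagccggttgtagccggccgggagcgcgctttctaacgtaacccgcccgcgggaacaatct
The Epb42 window held 1 GATA word, 226 bases before the start, and no CCNCNCCC. In Add2 a GATA word stood 234 bases before the start and a pair of overlapping CCNCNCCC matches 45 and 39 bases before it. Sptb held 3 CCNCNCCC matches, 121, 119 and 96 bases before the start, of which the first 2 overlap, and no GATA word. Among 32817 promoter windows of that length, 26.6% held a GATA word, 45.9% a CCNCNCCC and 8.20% both. These are matches of letters only, and whether any is a binding site was not tested. The windows of Epb41 (3 starts) and Tmod1 were searched and are not printed. Slc4a1, Ank1 and Gypc were not in the promoter table used.

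**Figure D1:**
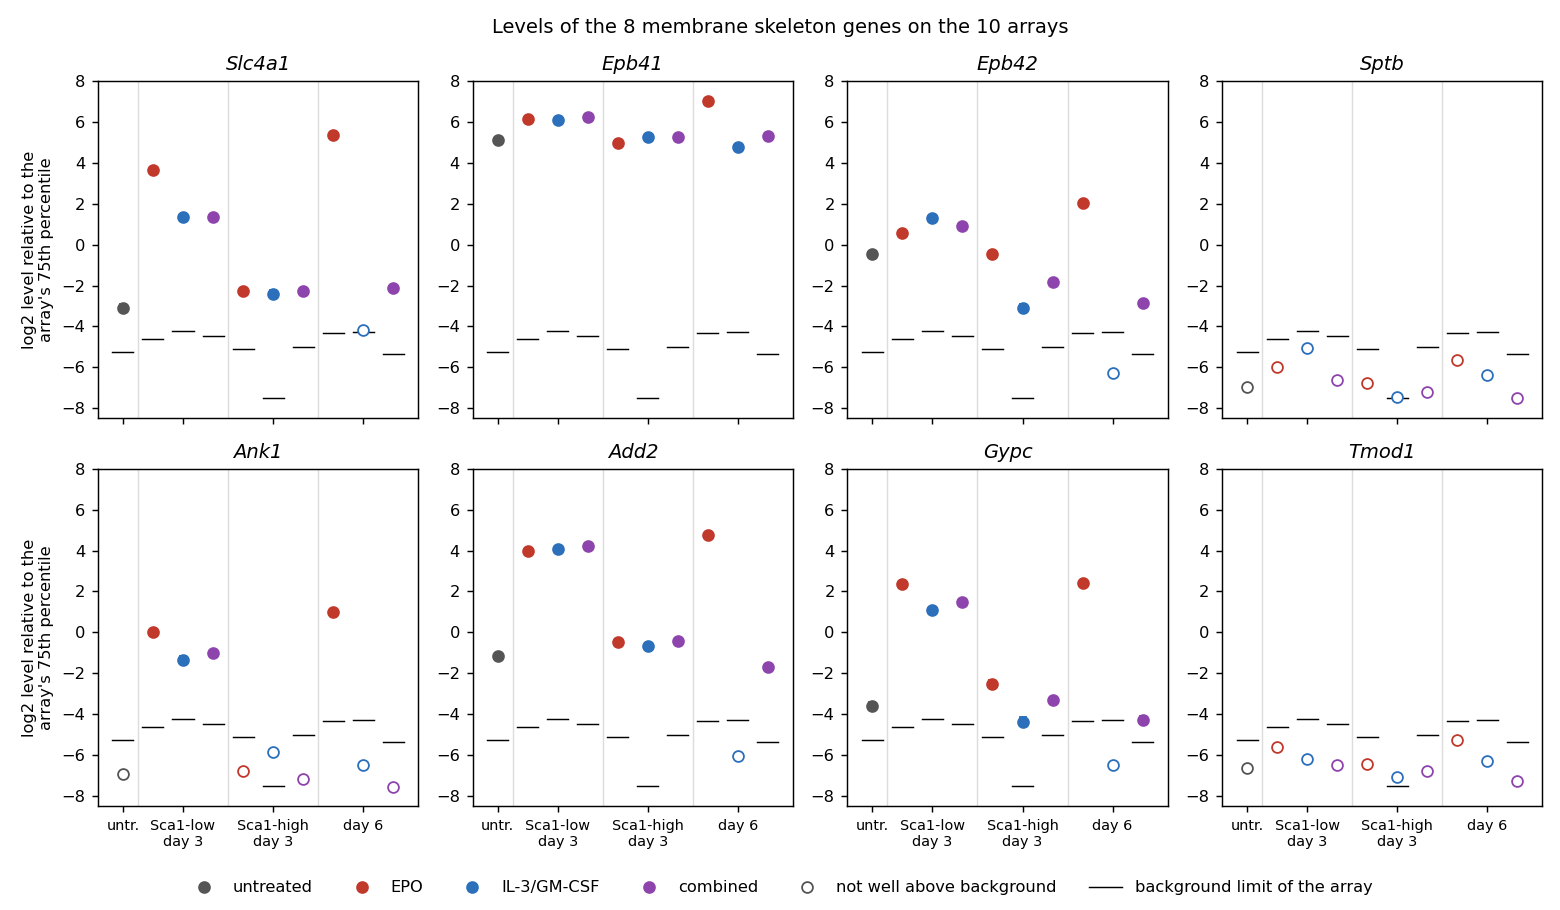
Each panel plots 1 gene, with the 10 arrays along the x axis (untreated, then Sca1-low and Sca1-high at day 3, then day 6) and the log2 level relative to the array's 75th percentile on the y axis. Colours are treatments, open circles are not well above background, error bars are the extraction software's spot error and short black lines are each array's background limit. EPO day 6 is the highest array for the 6 detected genes, and Sptb and Tmod1 have open circles throughout.

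The ankyrin complex comes first. In each set of 3 values below the order is EPO, IL-3/GM-CSF and combined. Slc4a1 encodes band 3, which exchanges chloride for bicarbonate and anchors the skeleton. It read -3.08 in untreated cells, 3.66, 1.34 and 1.35 in Sca1-low, -2.27, -2.39 and -2.29 in Sca1-high, and 5.35, -4.17 and -2.11 at day 6. The 3 Sca1-low arrays and EPO day 6 thus lay above all other arrays, EPO stood above the other treatments within Sca1-low, and IL-3/GM-CSF day 6 was not well above background. Between neighbours in this order, steps were set against 2 combined spot errors. The combined and IL-3/GM-CSF Sca1-low arrays were not separated by that measure, nor were combined day 6 and the 3 Sca1-high arrays.

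Ank1 encodes the red cell ankyrin, which links band 3 to spectrin. Its probe was well above background on 4 arrays only. These were the Sca1-low arrays, at 0.04, -1.33 and -1.02, and EPO day 6, at 1.01. On the other 6 arrays it lay between -7.55 and -5.85 and was not well above background. Its order on the 4 detected arrays, EPO day 6, EPO Sca1-low, then combined and IL-3/GM-CSF Sca1-low, is the order of Slc4a1, and the last 2 were again closer than 2 spot errors.

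Epb42 encodes protein 4.2, a transglutaminase relative without enzyme activity that binds band 3 and ankyrin. It read -0.44 in untreated cells, 0.59, 1.33 and 0.92 in Sca1-low, -0.48, -3.08 and -1.85 in Sca1-high, and 2.05, -6.29 and -2.85 at day 6, where the IL-3/GM-CSF value was not well above background. Its highest array was again EPO day 6, but within Sca1-low its lowest value was EPO's, unlike Slc4a1 and Ank1. Untreated cells and EPO Sca1-high were within 2 spot errors of each other, and all arrays with IL-3 other than Sca1-low lay below them.

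At the junctional complex, Epb41 encodes protein 4.1, which fastens spectrin to actin. Its brightest probe read 5.14 in untreated cells, 6.13, 6.10 and 6.23 in Sca1-low, 4.98, 5.26 and 5.27 in Sca1-high, and 7.01, 4.78 and 5.29 at day 6. It was detected on all 10 arrays, and its whole range, 2.23, was the narrowest of the 6 detected genes. The 3 Sca1-low arrays lay within 2 spot errors of their neighbours, and so did the 6 lowest arrays. Its other probes, both detected on all arrays, ran from -3.68 to -1.49 and from -3.51 to -1.51. Both also peaked at EPO day 6, 1.60 and 1.48 above untreated cells, against 1.87 for the brightest probe.

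Add2 encodes beta-adducin, which caps actin filaments together with alpha-adducin. It read -1.14 in untreated cells, 3.96, 4.07 and 4.24 in Sca1-low, -0.48, -0.68 and -0.42 in Sca1-high, and 4.75, -6.06 and -1.70 at day 6. The treatments were within 2 spot errors of their neighbours in each fraction, and at day 6 they were spread widely, with IL-3/GM-CSF not well above background. The range over the 10 arrays was 10.8 on the log2 scale, where the lowest value is below background.

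Gypc encodes glycophorin C, the membrane anchor of protein 4.1. It read -3.61 in untreated cells, 2.39, 1.11 and 1.46 in Sca1-low, -2.51, -4.36 and -3.31 in Sca1-high, and 2.40, -6.47 and -4.28 at day 6. EPO day 6 and EPO Sca1-low were level within spot error, and EPO was the highest treatment in every population. The IL-3/GM-CSF day 6 value was not well above background.

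Sptb and Tmod1 were not well above background on any array. Sptb encodes beta-spectrin of the red cell, and its probe lay between -7.52 and -5.05, that is 3.57 to 19.3 intensity units. Tmod1 encodes tropomodulin, which caps the pointed end of actin, and its probe lay between -7.27 and -5.28. These probes give only an upper bound, and neither gene entered the tests. The 6 other members passed the filter, which asked for a probe well above background on at least 2 arrays and left 14217 genes. Ank1 passed it only through the arrays in which it was high.

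The comparison of sorted fractions asks how cells sorted as low for Sca1 at day 3 differed from those sorted as high. Of the 8 genes, Slc4a1, Ank1, Add2 and Gypc rose in Sca1-low against Sca1-high, and Epb42 and Epb41 lay higher in Sca1-low under all 3 treatments without passing the test. limma was fitted on the 6 day 3 arrays with the 3 treatments as pairs, which leaves 2 residual degrees of freedom, and p-values were adjusted by Benjamini-Hochberg over 14217 genes. At an adjusted p under 0.05 it called 581 genes higher (4.09%) and 993 lower (6.98%), 11.1% in either direction. Of the 8 members it called 4, all higher, with Ank1 resting on Sca1-high levels below background. The median of all genes tested was 0.17, and 0.05 under quantile scaling.

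Add2 gave the most even difference, 4.44, 4.76 and 4.65 under EPO, IL-3/GM-CSF and combined, with an estimate of 4.62 ± 0.20 (SE, 3 pairs, adjusted p = 0.0040). Gypc differed by 4.90, 5.48 and 4.77, an estimate of 5.05 ± 0.24 (adjusted p = 0.0040). Slc4a1 differed by 5.93, 3.73 and 3.64, an estimate of 4.43 ± 0.53 (adjusted p = 0.0140), with its excess in the EPO pair. For Ank1 the Sca1-high arrays give only a bound. Ank1 was at least 35.3-fold, 22.9-fold and 15.8-fold higher in Sca1-low, and at least 23.4-fold over the 3 pairs. Its limma call (adjusted p = 0.0073) does not test that bound, since it uses Sca1-high levels below background. Ank1 also passed the filter only through arrays in which it was high, so the call adds no support. The bound is taken against the lowest level among probes well above background on the array, or the probe's own level where that is higher. That was so for Ank1 in IL-3/GM-CSF Sca1-high and for Slc4a1 in IL-3/GM-CSF day 6. Values from these are ratios of readings and no strict bounds, with spot errors of 0.50 and 0.34 on the log2 scale.

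Epb42 differed by 1.07, 4.40 and 2.77, an estimate of 2.75 ± 0.66 (adjusted p = 0.0691). The pairs disagree in size: the Sca1-high level under EPO was near that of untreated cells, and in the other treatments it was lower. Whether the difference depends on the treatment was not tested. Without the EPO pair the estimate was 3.58 (adjusted p = 0.0090). Epb41 differed by 1.16, 0.84 and 0.96, an estimate of 0.98 ± 0.20 (adjusted p = 0.0502), and its other probes gave means of 1.23 and 0.67. The mean over its 3 probes passed the test, with an adjusted p of 0.0440.

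All fraction calls rest on few arrays. Without the IL-3/GM-CSF pair 0 of the 8 members and 0 genes were called by limma, with 3437 genes at an unadjusted p under 0.05 and adjusted p-values of 0.0544 for Add2, Gypc and Ank1. Without the combined pair 464 genes and the same 4 members were called, and without the EPO pair 2309 genes and 5 members. Both fractions of each treatment lay on 1 slide, so the slide does not separate them.

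**Figure D2:**
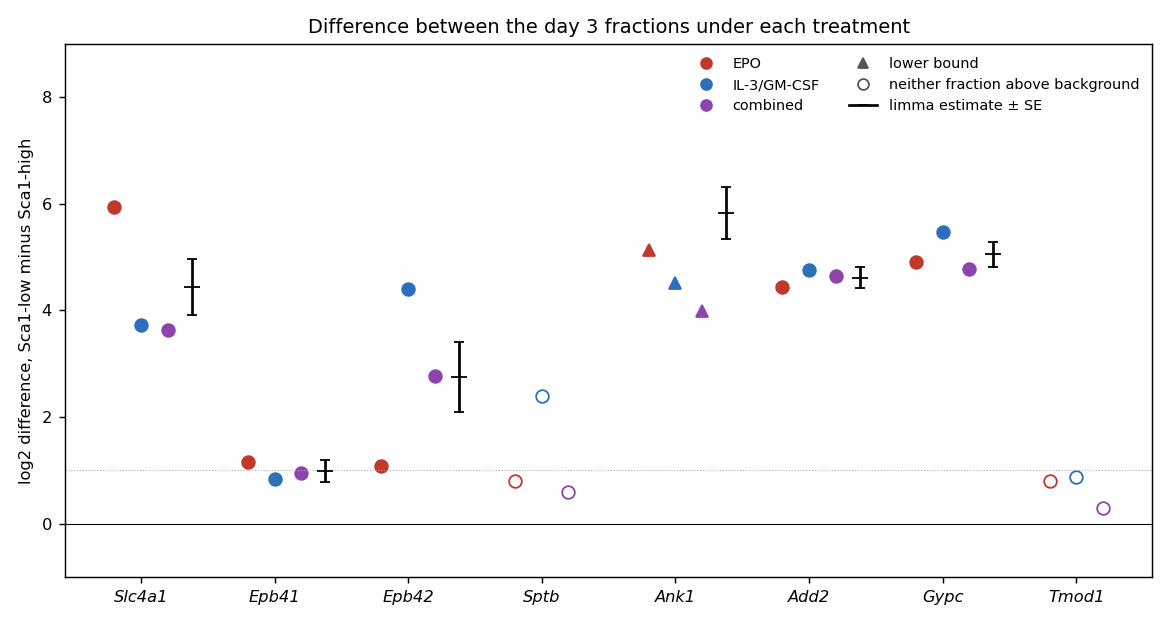
The y axis is the log2 difference between Sca1-low and Sca1-high at day 3, with 1 coloured symbol per treatment for each of the 8 genes on the x axis. Triangles are lower bounds, open circles mark genes below background in both fractions, black bars are the limma estimate ± SE and the dotted line is 2-fold. Add2 and Gypc cluster between 4.44 and 5.48, Slc4a1 is highest under EPO and Epb42 under IL-3/GM-CSF. The black bar of Ank1 uses levels below background and is no bound.

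By size alone, 6 of the 8 genes were at least 2-fold higher in Sca1-low under EPO (12.3% of genes tested), 5 in IL-3/GM-CSF (9.26%) and 5 in the combined treatment (11.8%). The same 5 genes were so under every treatment, Slc4a1, Epb42, Ank1, Add2 and Gypc, as were 2.71% of genes tested. For 7 of the 8 all Sca1-low arrays lay above all Sca1-high arrays (21.4%), Sptb among them with values below background. Sca1-low and EPO day 6 held the 4 highest arrays for 6 of the 8 genes, against 15% of genes tested. EPO day 6 was the highest array for 7, Tmod1 below background included (18.8%), and IL-3/GM-CSF day 6 the lowest for 5 (14.8%). Marker lists moved with the fractions. The summed linear level of 7 measured erythroid markers, relative to the 75th percentile, was 438 to 843 in Sca1-low and 67.5 to 154 in Sca1-high, and 6 of 7 were called higher. These sums are carried by the brightest probes. Of 8 progenitor markers 5 were called lower (sums 23.9 to 28.7 against 99.0 to 214), and of 6 mast cell markers 4 (10.9 to 35.7 against 157 to 625). Of 9 neutrophil markers 2 were called lower, Mpo and Cebpe (sums 9.96 to 16.1 against 189 to 393). The Sca1-high sums of these were carried mostly by Mpo, at 8.40, 7.72 and 7.03. Of 5 monocyte markers 2 were lower (22.5 to 126 against 43.3 to 97.1), and of 8 megakaryocyte markers 2 (37.5 to 101 against 32.1 to 79.8). Their part in the members' differences was not tested.

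Against untreated cells, comparisons of single arrays have no replicate check and no test, and a difference of at least 2-fold with the higher side well above background is counted. EPO day 6, which shared a slide with untreated cells, was higher for 6 of the 8 genes, against 11.6% of genes tested. Slc4a1 differed by 8.43, Gypc by 6.01, Add2 by 5.89, Epb42 by 2.48 and Epb41 by 1.87, and Ank1 was at least 77.2-fold higher. All detected members therefore stood above the start of the culture.

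At day 3 the Sca1-low arrays were higher than untreated cells for 5 of the 8 genes under EPO (18.5% of genes tested). They were so for 5 genes in IL-3/GM-CSF (7.89%) and 6 in the combined treatment (10.2%). The day 3 arrays all lay on other slides than untreated cells. The IL-3/GM-CSF Sca1-low cells had received no EPO beyond what the shared medium may hold. In them Add2 was 5.21, Gypc 4.73, Slc4a1 4.42 and Epb42 1.76 above untreated cells, and Ank1 at least 15.2-fold higher. The Sca1-low cells were thus raised for the same 5 genes with and without added EPO.

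Sca1-high cells stayed nearer to untreated cells. Under EPO only Gypc was higher, 2.15-fold (3.65% of genes tested), and under the other treatments only Epb42 differed. Its difference was -2.64 in IL-3/GM-CSF (6.44%) and -1.41 in combined Sca1-high (6.5%). The other differences of detected members from untreated cells ran from -0.75 to 0.81 in these 3 arrays, and Ank1 was below background throughout. Between treatments, EPO Sca1-high was above IL-3/GM-CSF Sca1-high for 2 genes (5.9%), Epb42 by 2.60 and Gypc by 1.85. The combined Sca1-high array was above it for the same 2 genes (4.61%), by 1.23 and 1.05, and below EPO for Epb42 (9.15%), at -1.37. It lay on another slide than the other Sca1-high arrays.

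Day 6 separated the treatments, with IL-3/GM-CSF day 6 on another slide than EPO day 6 and untreated cells. Against IL-3/GM-CSF day 6, EPO day 6 was higher for 6 of the 8 genes (16.3% of genes tested). It was at least 516-fold higher for Add2, 101-fold for Gypc, 79.2-fold for Epb42 and 38.7-fold for Ank1. For Epb41 it was higher by 2.23 on the log2 scale. Slc4a1 was 735-fold higher against its undetected reading, which is a ratio and no strict bound. In IL-3/GM-CSF day 6 Epb41 alone was well above background. Against untreated cells 4 genes were lower there (9.6%), at least 14.2-fold for Epb42, 8.70-fold for Add2 and 1.57-fold for Gypc, of which the last bound is below 2. Slc4a1 was 2.13-fold lower by its undetected reading. Slc4a1, Epb42, Add2 and Gypc were thus detected in untreated cells and not in IL-3/GM-CSF day 6, Ank1 in neither, and Epb41 in both.

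Combined day 6 lay on the slide of EPO day 6 and of untreated cells, and IL-3/GM-CSF day 6 on another. It was lower than EPO day 6 for 6 of the 8 genes (13.1% of genes tested): the log2 differences were -7.46 for Slc4a1, -6.67 for Gypc, -6.45 for Add2, -4.90 for Epb42 and -1.71 for Epb41, and Ank1 was at least 83.2-fold lower. Against untreated cells only Epb42 differed, by -2.42, where 6.31% of genes tested were lower and 8.42% higher. Against IL-3/GM-CSF day 6, 4 genes were higher (4.51%), at least 5.92-fold for Add2 and 2.65-fold for Epb42, with no bound for Gypc. Slc4a1 was 4.16-fold higher against its undetected reading in IL-3/GM-CSF day 6. EPO was present in both the combined and the EPO culture. In the combined culture Slc4a1, Epb41, Add2 and Gypc lay within 2-fold of untreated cells, and Epb42 lay below them. Ank1 was not well above background in combined day 6 or untreated cells and cannot be placed.

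The neutrophil markers moved the other way at day 6. Their summed level was 13.0 in EPO day 6, 2242 in IL-3/GM-CSF day 6 and 1756 in combined day 6, and 311 in untreated cells. The untreated sum was carried almost wholly by Mpo, at 8.24, while S100a8, S100a9 and Ngp were not well above background there. The median level of the list was -2.77 in untreated cells and -3.43 in EPO day 6. Erythroid markers summed to 1077, 21.0 and 66.3, and to 133 in untreated cells. The part of these cell types in the members' levels was not tested.

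In Sca1-low cells at day 3 the combined treatment was set against IL-3/GM-CSF. For 0 of the 8 genes did those arrays differ 2-fold, against 4.28% of genes higher and 2.24% lower in the combined treatment. With shares that small, a count of 0 does not set the members apart from other genes. The differences were 0.01 for Slc4a1, 0.13 for Epb41, 0.16 for Add2, 0.31 for Ank1, 0.35 for Gypc and -0.41 for Epb42. EPO alone was above IL-3/GM-CSF in Sca1-low for 3 genes (9.66%), Slc4a1 by 2.33, Ank1 by 1.37 and Gypc by 1.28, all on 1 slide. The combined treatment was lower than EPO for 2 genes (10.6%), Slc4a1 at -2.32 and Ank1 at -1.06. The combined Sca1-low array lay on another slide than the other Sca1-low arrays.

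From Sca1-low at day 3 to day 6 the members went on differently by treatment, with the changed medium and another slide in every such comparison. Under EPO 2 genes were higher at day 6 (5.28% of genes tested), Slc4a1 by 1.69 and Epb42 by 1.45. In IL-3/GM-CSF cells 6 of the 8 were lower (11.9%), from -1.32 on the log2 scale for Epb41 to at least 323-fold for Add2. Under the combined treatment 5 were lower (11.5%), with differences of -5.93 for Add2, -5.74 for Gypc, -3.77 for Epb42 and -3.46 for Slc4a1, and Ank1 was at least 20.4-fold lower. Day 6 was not sorted per the labels, so it is set here against a part of the day 3 culture. Against combined Sca1-high, combined day 6 was lower for 2 genes (6.18%), Add2 at -1.28 and Epb42 at -1.01. IL-3/GM-CSF day 6 was lower than IL-3/GM-CSF Sca1-high for 4 genes (8.08%). It was at least 2.27-fold lower for Epb42, with a bound of -3.58 on the log2 scale for Add2 and none for Gypc. Slc4a1 was 3.43-fold lower there by its undetected reading. EPO day 6 was higher than EPO Sca1-high for 6 (11.5%).

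Averaged over the 3 populations, treatments were not separated by the test. limma on the 9 treated arrays, with population as the pairing term and 4 residual degrees of freedom, called 0 of 8 members between EPO and IL-3/GM-CSF, and 1 gene (0.00703%), with 2683 genes at an unadjusted p under 0.05. Gypc was 4.00 ± 1.47 higher (SE, adjusted p = 0.238) and Slc4a1 3.99 ± 1.69 (adjusted p = 0.269), and the size changed from fraction to fraction as given above. Between combined and EPO 1 gene was called (0.00703%) and no member. With the slide as a block 865 genes and 4 members were called there, in a fit with 2 residual degrees of freedom.

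Between combined and IL-3/GM-CSF limma called 0 genes (0%; 261 at an unadjusted p under 0.05). Against untreated cells it called 0 genes for EPO, IL-3/GM-CSF and combined, with 1494, 962 and 677 at an unadjusted p under 0.05. The same 3 comparisons with the slide as a block called 1042, 298 and 63 genes, with 5, 4 and 2 members among them. All 3 share the 1 untreated array, and the blocked fits rest on effects that add up across slides.

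Other red cell membrane genes were read beside the members. Of 24 listed partners, all measured, 23 were tested between the fractions: 7 rose in Sca1-low, 1 fell and 15 were not called. The median was 0.47 over the 23 tested partners, against 0.17 over all genes tested. Among the transmembrane partners, Rhd, the Rh blood group protein, rose by 6.23 ± 0.30 (SE) and Rhag, its partner in the membrane, by 4.64 ± 0.22. Icam4, an adhesion molecule of the Rh complex, rose by 3.00 ± 0.22 and Kel, which carries the Kell antigen, by 2.86 ± 0.31. The adjusted limma p-values were 0.0040, 0.0040, 0.0060 and 0.0118, and none of the 7 was called without the IL-3/GM-CSF pair. The other genes called higher were Mpp1, Xk and Stom. Slc2a1, a glucose transporter, fell. The actins, tropomyosins and capping proteins of the list were not called.

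Of 20 listed paralogs of the members 19 were measured and 15 tested, of which 0 were called higher and 2 lower by limma, both spectrins of other tissues. The median over the 15 tested paralogs was -0.38. Sptbn1, a non-erythroid beta-spectrin, fell by 3.14 ± 0.30 (SE, adjusted p = 0.0095). It read 4.20 in untreated cells, -0.06, 2.01 and 1.89 in Sca1-low, 3.77, 4.78 and 4.71 in Sca1-high, and -0.35, 5.11 and 5.12 at day 6. Its lowest arrays were thus EPO day 6 and EPO Sca1-low. Sptan1, the non-erythroid alpha-spectrin, fell by 1.90 ± 0.26 (SE, adjusted p = 0.0197), its probe being detected in 2 of 3 Sca1-low arrays. It read -0.91 in untreated cells and -5.15, -0.35 and -0.85 at day 6, where the EPO value was not well above background.

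The remaining paralogs were not called. Alpha- and gamma-adducin, Add1 and Add3, differed by -0.25 ± 0.20 and -0.31 ± 0.21 (SE) where Add2 rose, and Add1 stayed between 4.17 and 5.22 on all 10 arrays. Tmod3, the tropomodulin found in many tissues, was detected on all arrays and differed by -0.48 ± 0.32. Slc4a2, an anion exchanger of many tissues, differed by -0.06 ± 0.23. Slc4a3 was well above background on 1 array, Epb41l3 on 1, and Ank3 and Tmod2 on 0. Ank2 was detected on 2 arrays. Tgm2, an active transglutaminase, differed by -1.26 ± 0.72.

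**Figure D3:**
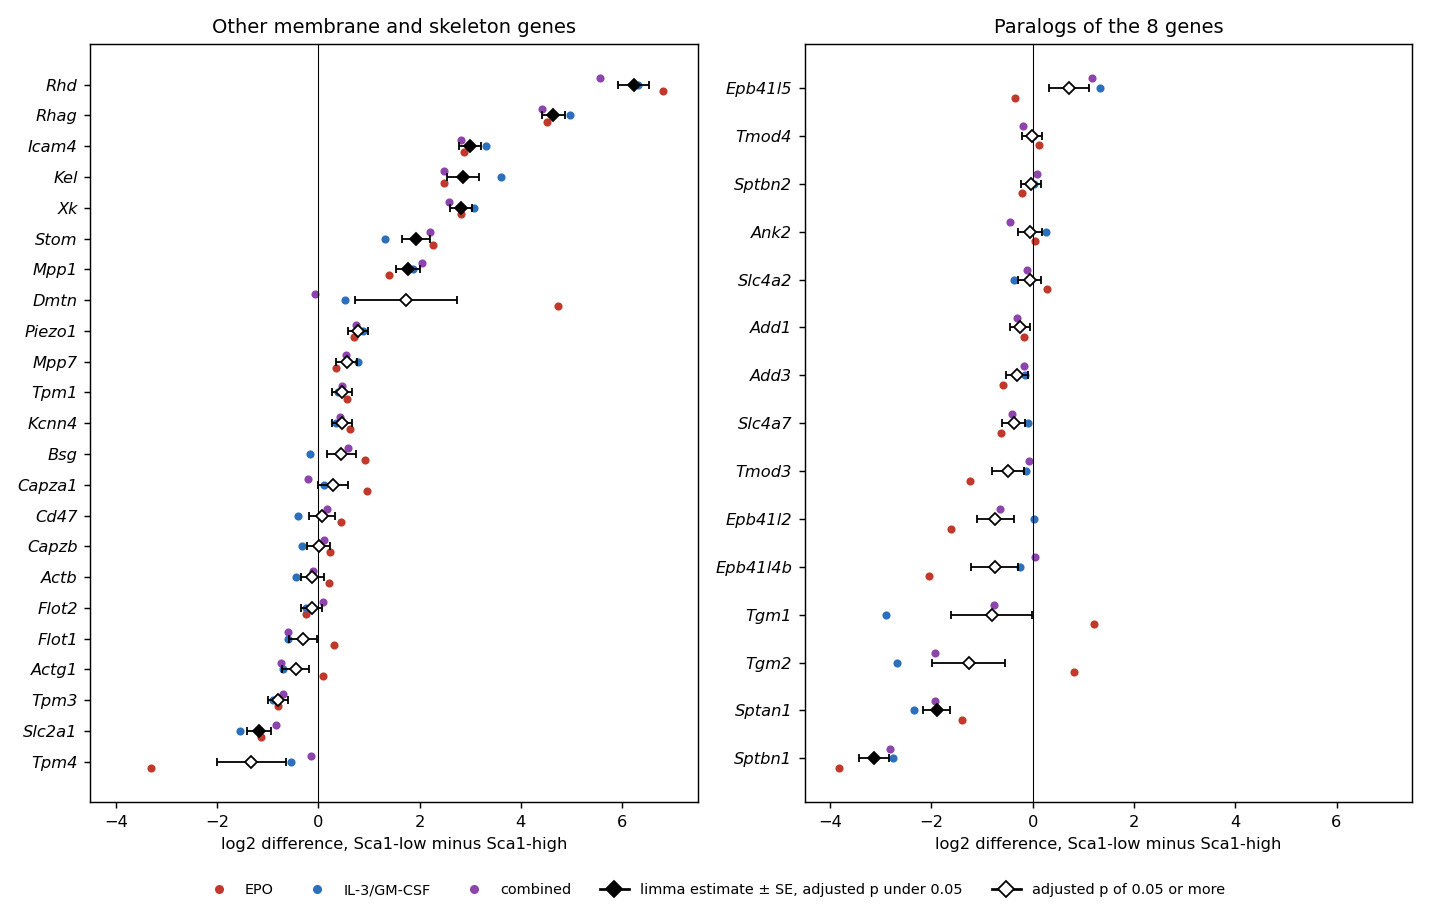
The x axis is the log2 difference between Sca1-low and Sca1-high at day 3 for the tested partners (left) and paralogs (right). Coloured points are the 3 treatments, diamonds the limma estimate ± SE, filled where the adjusted p is under 0.05. In the left panel 7 genes are called above 0, led by Rhd at 6.23, and in the right panel Sptbn1 and Sptan1 are called below 0.

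**Figure D4:**
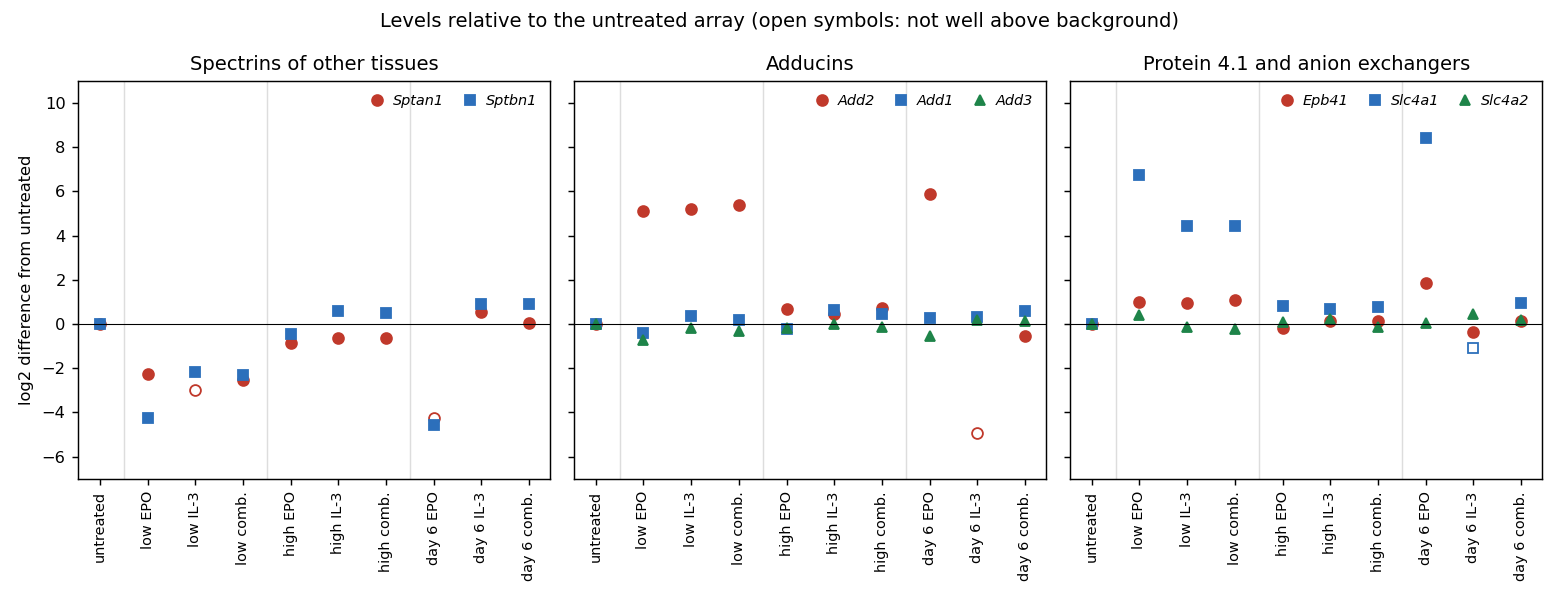
The y axis is the log2 level minus that of untreated cells, and the x axis lists the arrays (low and high are the Sca1 fractions of day 3, IL-3 the IL-3/GM-CSF treatment, comb. the combined treatment). Open symbols are not well above background. Sptbn1 lies below 0 in the Sca1-low arrays and EPO day 6 and above 0 in the other day 6 arrays, while Add1 and Add3 stay near 0 where Add2 reaches 5.89.

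Over the 10 arrays the 6 detected members ran together, with Pearson's r from 0.73 (Epb42 and Ank1) to 0.97 (Add2 and Gypc). These arrays share slides, fractions and the untreated start, so r is a description. Values below background also enter it: Ank1 was well above background on 4 of the 10 arrays. In IL-3/GM-CSF day 6 only Epb41 was. The genes most like a member in pattern were sought among 12208 genes detected on 5 or more arrays, without members and clone-type symbols. For Add2 they were Cldn13, Kel and Ermap (r = 0.985, 0.985 and 0.984), and for Gypc Trim10, Chpf and Smap2 (0.991, 0.991 and 0.990). Slc4a1 was matched by Slc6a20a, Itfg2 and Ccndbp1 (0.993, 0.990 and 0.988), and Ank1 by Oip5, Kmt5c and Nmnat3 (0.992, 0.988 and 0.987). Epb42 gave Mllt3, Serpinb6b and Serpinb9 (0.990, 0.988 and 0.987), and Epb41 gave Zdhhc22, Eif2a and Jmy (0.991, 0.990 and 0.980). Kel is the 1 gene among these that is also on the partner list.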

How the data were processed

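Total RNA of 10 EML-C1 samples was labelled with Cy3 and hybridised to 1-colour Agilent arrays. The authors deposited spot intensities from Agilent Feature Extraction 11.0.1.1, per the submitters' processing notes and the file headers; the processed signal is background-corrected. The series table, as read here, held processed intensities of the same arrays, equal to those of the array files for 62969 of 62969 rows. Depth here is signal over background, and 1 array per condition limits the precision: p-values measure only the spread between these arrays.

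Here log2 processed intensity minus each array's 75th percentile was taken over non-control spots; flagged spots were left out and repeat spots averaged. RefSeq identifiers were named through the RefSeq gene table (GRCm38.p6; 98.1% matched), and the brightest probe stood for a gene. Genes well above background on at least 2 of 10 arrays were compared with limma 3.58.1 in R 4.3.3, using Benjamini-Hochberg adjustment over 14217 genes and a threshold of 0.05; the fits were checked on simulated data. Alternatives were normexp with an offset of 50 and quantile scaling, and quantile scaling alone. The normexp values came from median signals, since the files used hold no mean signal. The series table was also run, but it holds the same intensities and gave the same calls. Further alternatives were other filters, the mean of probes, the slide as a block, and leaving out arrays or pairs.

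All members were named. Of each list, values are given for the 4 genes with the largest absolute fraction difference and for paralogs beside a member; like genes are the 3 of highest correlation. Members and lists were chosen with earlier results of these data known. Some listed genes are not reported here and were left out of the list counts and sums.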

Additional observations from a re-analysis of the deposited data

Results flagged for a closer look

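The change from Sca1-low at day 3 to day 6 was at least 2-fold in opposite directions under the treatments for 2 members, by values of single arrays. Slc4a1 was 1.69 higher on the log2 scale under EPO and 3.46 lower under the combined treatment. Under IL-3/GM-CSF it was 45.6-fold lower by its undetected day 6 reading. Epb42 was 1.45 higher under EPO, at least 48.1-fold lower under IL-3/GM-CSF and 3.77 lower under the combined treatment. The reversal was not particular to these genes. Ank1, Epb41 and Add2 were also higher under EPO, by 0.97, 0.87 and 0.79, which is under 2-fold, and lower under the other treatments. With 1 array per condition the difference between treatments was not tested. Day 6 and day 3 arrays lay on different slides in each of these comparisons.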

How the results depend on the processing

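The fraction comparison called 1574 genes and 4 members. Without a filter on dim probes it called 1025 genes and 4 members, and with normexp 2218 genes and 6 members. With probes well above background on all arrays of the fit it called 2386 genes and 5 members. In the 9 treated arrays with day 6 included it called 0 genes and 0 members, and leaving out pairs gave 0 to 2309 genes and 0 to 5 members. EPO against IL-3/GM-CSF called 1 gene, 2 with normexp, 0 with the slide as a block and 0 to 131 without single arrays, 131 being without EPO Sca1-low. Combined against EPO called 1 gene, 3 with normexp, 0 without a filter, 18 with all arrays above background, 865 genes and 4 members with the slide as a block, and 0 to 101 without single arrays (101 without EPO Sca1-low). With the slide as a block EPO, IL-3/GM-CSF and combined against untreated called 1042, 298 and 63 genes and 5, 4 and 2 members. Leaving out single arrays gave them 0 to 1, 0 to 7 and 0 to 1 genes, and the filter on all arrays 1 gene for IL-3/GM-CSF. Epb41 turned sign between EPO and IL-3/GM-CSF with the slide as a block (-0.12) and without EPO day 6 (-0.049), with a range of -0.049 to 1.08 without single arrays. Epb42 between EPO and untreated ranged from -0.81, without EPO day 6, to 2.77. The members' fraction differences kept their direction under every alternative run. Of the single-array differences of members 97 were at least 2-fold, and 81 with normexp. Scaling moved the share of higher genes among those past 2-fold from 49.6% to 35.7% between combined fractions (normexp), from 50.9% to 40.3% in EPO Sca1-low against untreated (quantile or normexp) and from 41.4% to 54.4% in IL-3/GM-CSF day 6 against Sca1-high (normexp). Treatments or populations were the pairing terms of the fits, and a block by replicate number could not be fitted, since every condition has replicate 1 only. Each condition is 1 array, and Sptb, Tmod1 and most IL-3/GM-CSF day 6 values lie below background, where only bounds hold.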

Other observations

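Further genes of the skeleton differed by treatment within a fraction, in values of single arrays that were singled out after they were seen and not tested. Dmtn, which encodes the actin-bundling protein dematin, was well above background in EPO Sca1-low (-0.66) and EPO day 6 (-0.57) and on no other array, where it lay between -6.57 and -5.29. Tpm4, a tropomyosin, read 5.77 in untreated cells and 5.41 in EPO Sca1-high and lay between 2.10 and 3.36 on the other 8 arrays. Tgm1, a transglutaminase related to protein 4.2, was not well above background in untreated cells (-6.68) and read 0.65 in IL-3/GM-CSF Sca1-high, 1.63 in IL-3/GM-CSF day 6 and 0.88 in combined day 6.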
